A study of Mus musculus with 27 samples.

Results

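The SMN complex was followed in single muscle fibers of mice with and without Smn1 in skeletal muscle, using the probes whose annotated gene name was Smn1, Gemin4, Gemin5, Gemin6, Gemin7, Gemin8, Ddx20 or Strap. These 8 genes, of 35527 gene names on the array, were represented by 15 probes. Each array held the RNA of 1 tibialis anterior myofiber, a limb muscle fiber freed with collagenase and picked under a stereomicroscope, amplified on its own and hybridized in 1 colour. All animals were male and 3 months of age by the labels. The Wt group was 8 myofibers of 2 wild type mice, and the Smn1deltaSKM group was 12 myofibers of 3 mice with both Smn1 copies floxed at exon 7 and Cre driven by the human skeletal actin promoter, which is active in myofibers. The Smn1deltaSKM+AFS group was 7 myofibers of 2 mice of that knockout given GFP-positive mouse amniotic fluid stem cells through the tail vein. The paper's text gives another number of treated myofibers and mice than the labels, and the labels were followed here. By the study's methods the transplantation itself took place at the age that the labels give, so the ages at collection may differ between groups.

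SMN, the protein lost in spinal muscular atrophy, works as the core of a complex that loads the ring of Sm proteins onto the small nuclear RNAs of the spliceosome. Gemin2 (not among the probes under that name), the DEAD-box helicase Ddx20 (Gemin3), Gemin4, the RNA-binding WD-repeat protein Gemin5, the small Sm-fold pair Gemin6 and Gemin7, Gemin8 and Strap (unrip) make up the rest of it. Gemin5 recognises the RNA, Gemin8 links the Gemin6 and Gemin7 pair to SMN, and Strap binds through Gemin7. The assembly is cytoplasmic, follows the methylation of Sm proteins by the Prmt5 methylosome and precedes cap hypermethylation and re-import of the particle into the nucleus.

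The probes were 60 bases long and their positions are those of the array files (mm9). The Smn1 probe named here upstream, A_55_P2048560, began at base 505 of the transcript and lay at chr13:100898171-100898230, plus strand. The Smn1 probe named here downstream, A_55_P2048848, began at base 1112 and lay at chr13:100907539-100907598, plus strand. Both Smn1 probes matched the genome in 1 unbroken run, and exon 7 is shorter than a probe, so neither probe lay in the exon that Cre removes and neither checks the deletion itself. For Gemin6, A_55_P2093727 began at base 804 (chr17:80627556-80627615, plus strand) and A_55_P2095784 at base 1026 (chr17:80627778-80627837, plus strand). The Gemin4 probe that differed most between groups, A_55_P1966573, lay at chr11:76024112-76024171, minus strand. The first 30 bases of these 5 probes, 5′ to 3′ and with nothing set in capitals, are shown because the probes of 1 gene did not give the same result.
Smn1 upstream: atgaaagtcaagtttccacagacgacagtg
Smn1 downstream: aaggcagtctacccagtcgtgactgagcac
Gemin6 A_55_P2093727: ttataggtgtgtgtgcgtattttaaggttt
Gemin6 A_55_P2095784: aaatttataaatttcaatataagatattaa
Gemin4 A_55_P1966573: cgtacacagtgaaaggagtacaagagcagt
The second Gemin6 probe was 21.7% G and C, the lowest share of the 15, and the first was 35.0%. Of the other genes, Ddx20 probe A_65_P07038 and Strap probe A_66_P106375 crossed an intron, and Ddx20 probe A_51_P127756 was spotted 10 times on each array and averaged.

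A level below is the log2 signal of a probe minus the 75th percentile of its array, and a difference is a difference of such levels. Levels are relative, so less RNA of a gene and more RNA of other genes in a fiber cannot be told apart, nor can fewer contributing nuclei and less RNA per nucleus. A probe had a value where the spot was found, well above background and even. Per array, 23183 to 37595 probes had one, with medians of 25156 in Wt, 31433.5 in Smn1deltaSKM and 27431 in Smn1deltaSKM+AFS. All 8 Wt arrays shared 1 slide and scan day 3, on which no other group was scanned, so genotype and batch cannot be told apart in either comparison with Wt. Scan day 1 held myofibers 1 to 3 of Smn1deltaSKM mouse 1 and 2 myofibers of Smn1deltaSKM+AFS mouse 1, and day 2 held the rest of both groups. Of the myofiber markers, Acta1, Myh4, Pvalb, Tnnt3 and Ttn had a value on all 27 arrays, Ckm, Myh1 and Myh7 on 26 and Myh2 on 4. Markers of other cells were detected unevenly. Of the satellite cell markers, Myf5 had a value on 25 arrays, Vcam1 on 9, Pax7 on 3 and Calcr on 0. Of the fibroblast markers, Col3a1 had one on 23, Dcn on 18, Col1a1 on 16 and Pdgfra on 1. Among the endothelial markers, Kdr had one on all 27, Pecam1 on 15 and Cdh5 on 11. Among the immune markers, Ptprc had one on all 27, Cd68 on 26 and Cd3e on 25. Of 13 tested myofiber marker probes 12 had a difference below 0 between Smn1deltaSKM and Wt, with a median of -0.67 against -0.14 over all probes. Among them 1 was called higher (Myh1, 2.20) and 2 lower (Ckm, -1.76, and Ttn A_52_P454295, -1.25), or 23.1%. The summed level of all 14 myofiber marker probes was 10.53 to 11.24 in Smn1deltaSKM and 11.02 to 11.75 in Wt. Of the 3 immune marker genes tested, Cd68 and Ptprc were called higher in Smn1deltaSKM, and the summed level of that list was 1.33 to 4.03 against -0.03 to 1.06 in Wt and 1.18 to 3.99 in Smn1deltaSKM+AFS. The summed fibroblast markers spread widely in all groups (-1.94 to 5.91 in Wt, -1.01 to 4.31 in Smn1deltaSKM), as did the red blood cell markers (-3.51 to 4.93 and -0.77 to 4.79), and the endothelial markers lay at 2.34 to 4.18 and 3.07 to 4.09. The part of these shifts in the results below was not tested. Of the 15 member probes, 10 (6 genes) had values on at least 75% of the arrays and were tested with limma on mouse means.

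Smn1 gave a split result. At the downstream probe the level in Wt was 0.63 at the lowest, 1.97 at the median and 2.38 at the highest of 8 myofibers, and in Smn1deltaSKM it was -1.41, 0.36 and 0.66 over 12 myofibers. In Smn1deltaSKM+AFS it was -1.04, 0.13 and 1.32 over 7 myofibers. Of the 12 knockout myofibers 11 lay below every Wt myofiber, and 7 of the 8 Wt myofibers lay above every knockout one. The Wt exception was myofiber 8, at 0.63. How many probes of the whole array separate the myofibers this far was not counted. Over mouse means, 33.9% of the tested probes with a mean in every mouse lay lower in Smn1deltaSKM than in Wt without overlap. The mouse means were 1.86 and 1.84 in Wt, -0.07, 0.20 and 0.36 in Smn1deltaSKM, and -0.34 and 0.82 in Smn1deltaSKM+AFS. The knockout was lower than Wt by a log2 difference of -1.68 (SE 0.37, 95% interval -2.52 to -0.84, limma adjusted p = 0.0201), which is 3.21-fold. Over all 22169 probes, 21.5% were called at adjusted p under 0.05 in this comparison, 14.1% lower and 7.33% higher, so 2 called of 10 tested members were not more than the background. With arrays centred on their median over the probes with values on every array, in place of the 75th percentile of all non-control spots, the share of called probes that were lower went from 65.8% to 45%, the median difference of all probes from -0.14 to 0.08, and the Smn1 difference to -1.47. The call was lost without Wt mouse 1 (adjusted p = 0.16), without Wt mouse 2 (adjusted p = 0.106) and without Smn1deltaSKM mouse 2 (adjusted p = 0.0516), all with limma and with differences between -1.70 and -1.67. Without either Wt mouse limma called 0 probes of the whole array in this comparison (4635 and 5965 at an unadjusted p under 0.05).

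At the upstream Smn1 probe the groups overlapped. Wt ran from 1.59 over 2.44 to 2.91 (lowest, median, highest), Smn1deltaSKM from 1.83 over 2.57 to 3.37 and Smn1deltaSKM+AFS from 2.36 over 2.74 to 3.88. The difference between Smn1deltaSKM and Wt was 0.19 (SE 0.35, 95% interval -0.62 to 1.00, limma adjusted p = 0.715), and the sign turned without Wt mouse 2 (-0.07) or without Smn1deltaSKM mouse 1 (-0.06). The interval allowed at most a drop of 0.62 on this scale. The 2 probes were then set against each other within each array, where the scaling of the array cancels. The downstream minus the upstream level was between -1.20 and 0.07 in the 8 Wt myofibers, between -4.27 and -1.65 in the 12 Smn1deltaSKM myofibers and between -4.92 and -1.49 in the 7 Smn1deltaSKM+AFS myofibers, so that no fiber of either knockout group reached the Wt range. Its mouse means were -0.81 and -0.31 in Wt, -3.17, -1.97 and -2.16 in Smn1deltaSKM, and -3.34 and -1.76 in Smn1deltaSKM+AFS. The group means differed by -1.88 between Smn1deltaSKM and Wt (exact permutation test over mice, two-sided, p = 0.1, the smallest that 2 against 3 mice allow). This comparison was made after the 2 probes had been seen to differ, and it has the same confounding of Wt with slide and scan day. The same within-array difference between the 2 probes of Strap changed by -0.99 (exact permutation p = 0.2), of Gemin7 by 0.45 (exact permutation p = 0.5) and of Ddx20 by 0.07 (exact permutation p = 0.9). For Strap the mouse means also lay apart, at -0.14 and 0.49 in Wt against -1.39, -0.23 and -0.83 in Smn1deltaSKM. The treated mice lay at -0.97 and -0.33 there. Its myofibers overlapped, from -1.27 to 1.69 in Wt and from -2.91 to 0.06 in Smn1deltaSKM. How many probe pairs of the whole array separate the groups in this way was not counted. A value averaged over both Smn1 probes gave a difference of -0.75 (limma adjusted p = 0.079).

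**Figure D1:**
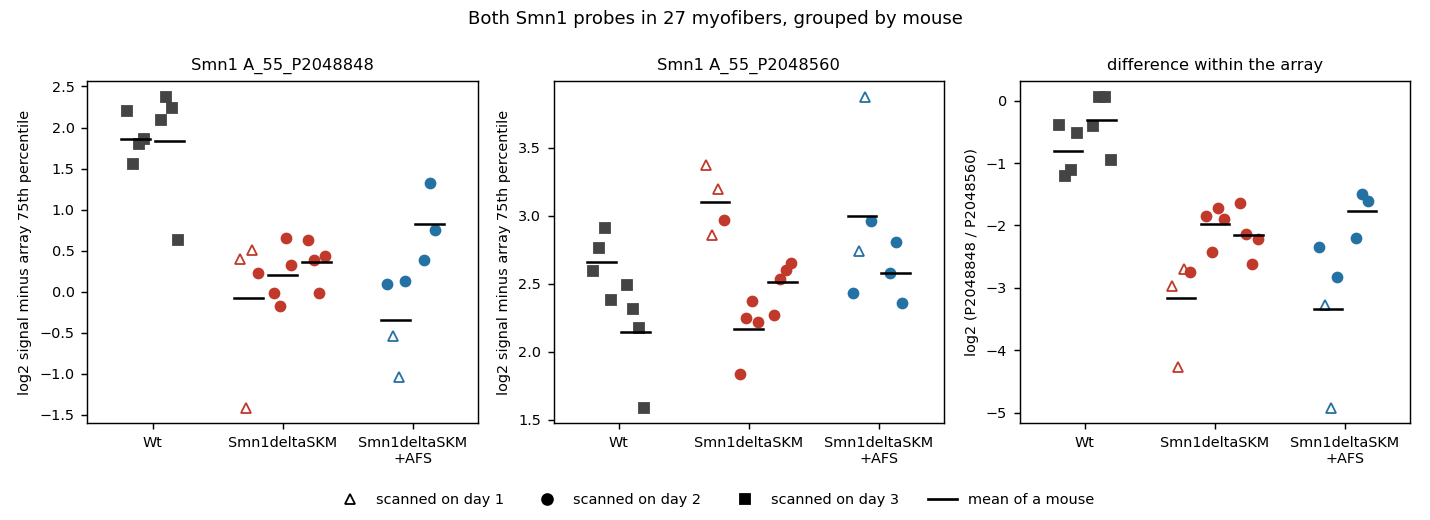
Level of the downstream Smn1 probe (left), of the upstream probe (middle) and their difference within each array (right) for 27 myofibers; columns of points are mice, black bars are mouse means, and the marker gives the scan day. The downstream probe and the difference separate Wt from both knockout groups apart from Wt myofiber 8 at the downstream probe, and the upstream probe does not.

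Gemin6, 1 of the Sm-fold subunits, was higher in both knockout groups at the probe that could be tested. At A_55_P2093727 the Wt myofibers ran from 1.87 over 3.43 to 5.22, Smn1deltaSKM from 4.33 over 5.10 to 6.48 and Smn1deltaSKM+AFS from 4.10 over 4.74 to 6.76. Of the 8 Wt myofibers 7 lay below every myofiber of Smn1deltaSKM, and the remaining one, Wt myofiber 8 at 5.22, lay inside the knockout range. The share of all probes with such a separation of myofibers was not counted. Over mouse means, 21.4% of the tested probes with a mean in every mouse lay higher in Smn1deltaSKM without overlap. The mouse means were 3.18 and 3.39 in Wt, 5.73, 4.68 and 5.21 in Smn1deltaSKM, and 5.46 and 4.74 in Smn1deltaSKM+AFS. Smn1deltaSKM exceeded Wt by 1.92 (SE 0.38, 95% interval 1.06 to 2.78, limma adjusted p = 0.0152), or 3.79-fold. Within the Wt mice the myofibers ran from 1.87 to 3.99 and from 1.89 to 5.22, a wider spread than that between the Wt mouse means (3.18 and 3.39).

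The Gemin6 level also moved with the scan day. The 3 Smn1deltaSKM myofibers of day 1 lay at 5.87 to 6.48 and the 9 of day 2 at 4.33 to 5.37, and the 2 Smn1deltaSKM+AFS myofibers of day 1 lay at 6.45 to 6.76 against 4.10 to 4.97 for the 5 of day 2. Without the Smn1deltaSKM myofibers of day 1 the difference from Wt was 1.46 (limma adjusted p = 0.018). With the slide as a random block it was 2.01 and no longer called (limma adjusted p = 0.08), and without Wt mouse 1 or 2 the difference was 1.82 (adjusted p = 0.152) or 2.03 (adjusted p = 0.0855), again with no probe of the whole array called. The second Gemin6 probe, A_55_P2095784, did not pass the filter, and why the 2 Gemin6 probes differ was not tested. It was well above background on 2 of 8 Wt, 3 of 12 Smn1deltaSKM and 0 of 7 Smn1deltaSKM+AFS arrays, and with the measured signal kept its difference between Smn1deltaSKM and Wt had the opposite sign, -0.999 (limma adjusted p = 0.166).

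Gemin5, the subunit that reads the small nuclear RNA, was lower in the knockout without passing the test. Its Wt myofibers ran from 0.12 over 0.40 to 0.90, those of Smn1deltaSKM from -1.30 over -0.17 to 0.32 and those of Smn1deltaSKM+AFS from -0.32 over 0.08 to 2.04. All 3 Smn1deltaSKM mouse means (-0.29, -0.34 and 0.08) lay below both Wt means (0.36 and 0.58). Over all probes with a mean in every mouse, 33.9% had such a separation downward and 21.4% upward, against 2 downward (this probe and the downstream Smn1 probe) and 1 upward (Gemin6) of the 10 members. The difference was -0.65 (SE 0.28, 95% interval -1.30 to -0.01, limma adjusted p = 0.124).

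Gemin4, which sits next to Ddx20 in the complex, did not reach the filter, yet its 3′ probe separated the groups. A_55_P1966573 had a value on 7 of 8 Wt, 0 of 12 Smn1deltaSKM and 2 of 7 Smn1deltaSKM+AFS arrays. It was well above background on 8, 6 and 4 of them, and found as a spot on 7, 5 and 3. With the measured signal kept on every array, Wt ran from -1.85 over -1.18 to -0.25, Smn1deltaSKM from -3.78 over -2.82 to -2.03 and Smn1deltaSKM+AFS from -4.14 over -2.57 to -1.94. Every Wt myofiber lay above every myofiber of both knockout groups on this scale. How many probes of the whole array separate the myofibers in this way was not counted. Over mouse means, 33.9% of the tested probes with a mean in every mouse lay lower in Smn1deltaSKM than in Wt without overlap. Since the probe was well above background on 6 of the 12 Smn1deltaSKM arrays, the size of the difference is uncertain. In a limma fit over all 55681 probes without the filter, the difference between Smn1deltaSKM and Wt was -1.62 (SE 0.41, adjusted p = 0.0332). That fit called 7026 probes, and in it Gemin8 probe A_55_P1981050, well above background on no array, differed by -0.49. With a normexp background correction the Gemin4 difference was -0.70 (limma adjusted p = 0.0207). Before scaling, the log2 signal of this Gemin4 probe overlapped between groups, at 4.69 on Wt myofiber 6 and 5.53 on Smn1deltaSKM myofiber 9. The part of the scaling in the Gemin4 difference was not tested. For Smn1deltaSKM+AFS against Wt the unfiltered difference was -1.55 (SE 0.45, limma adjusted p = 0.0774), and with normexp it was -0.65 (limma adjusted p = 0.0432). The second Gemin4 probe, A_52_P476699, was well above background on 2, 3 and 2 arrays and gave -0.32 (SE 0.48, limma adjusted p = 0.657) in that unfiltered fit, so the 2 Gemin4 probes did not give the same result.

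**Figure D2:**
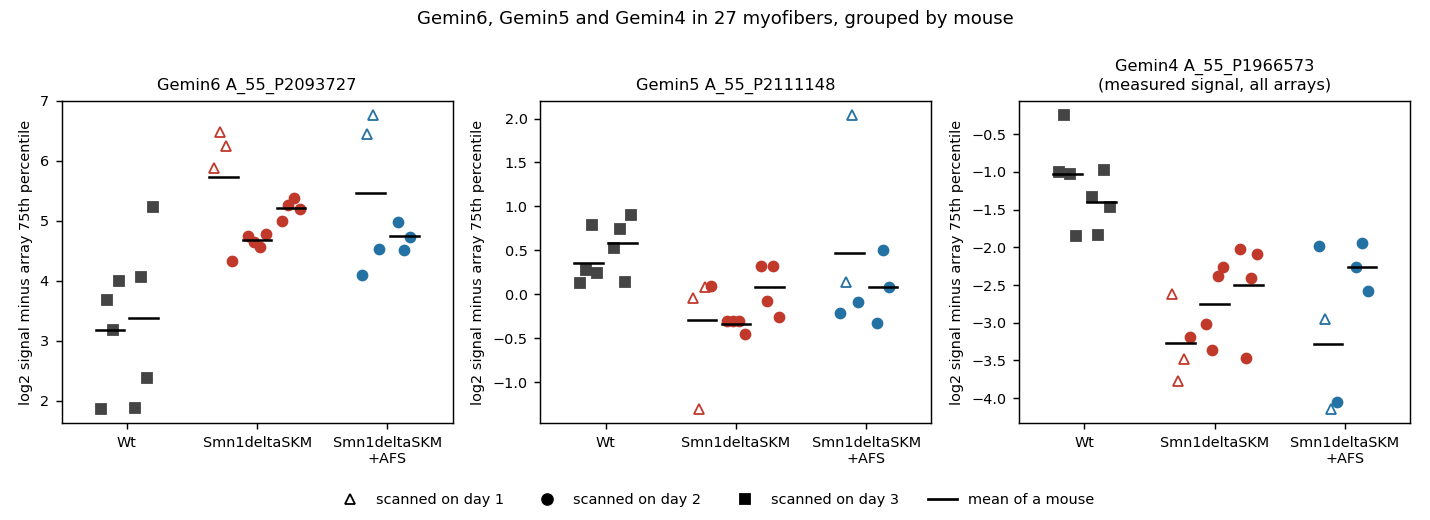
Levels of Gemin6, Gemin5 and Gemin4 by mouse, with bars at mouse means and markers by scan day; the Gemin4 panel uses the measured signal of all 27 arrays, including spots without a value. Gemin6 is high in both knockout groups and highest in the open triangles of scan day 1, Gemin5 overlaps between groups, and the Gemin4 probe is at -1.85 or above in Wt and at -1.94 or below in both knockout groups.

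Gemin8, the link between SMN and the Gemin6 and Gemin7 pair, was barely measured. Probe A_55_P1981050 was well above background on 0 of 27 arrays. Probe A_55_P2003353 was well above background on 3 of 8 Wt arrays and on none of the 19 others. Its measured signal ran from -4.96 over -3.25 to -2.53 in Wt, from -5.78 over -4.91 to -3.75 in Smn1deltaSKM and from -5.51 over -4.9997 to -3.25 in Smn1deltaSKM+AFS, so the groups overlapped, and most of these spots were not well above background. Against Wt the unfiltered limma fit gave adjusted p = 0.0683 for Smn1deltaSKM and 0.307 for Smn1deltaSKM+AFS, and with normexp the differences were -0.31 (adjusted p = 0.0341) and -0.22 (adjusted p = 0.116). A probe named Sip1, an older symbol of Gemin2, had a value on 2 of 8 Wt, 2 of 12 Smn1deltaSKM and 0 of 7 Smn1deltaSKM+AFS arrays and was not tested.

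Ddx20, Gemin7 and Strap gave no call in any comparison at either of their 2 probes. Ddx20, the helicase, lay at medians of -1.85 in Wt, -1.81 in Smn1deltaSKM and -1.72 in Smn1deltaSKM+AFS at A_51_P127756 and of -2.09, -2.31 and -2.22 at A_65_P07038. The 2 differences between Smn1deltaSKM and Wt were 0.16 (95% interval -0.82 to 1.14) and 0.12 (95% interval -0.89 to 1.13), and both intervals include 0 and reach past 1 on the upper side. Both signs turned when the Smn1deltaSKM myofibers of scan day 1 were left out (-0.18 and -0.26).

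Gemin7, the partner of Gemin6, was the steadiest member at A_51_P375390, where all 27 myofibers lay between 3.64 and 4.76. The knockout differed from Wt there by -0.11 (SE 0.26, 95% interval -0.69 to 0.48). At A_55_P2165854 Wt ran from 0.48 over 2.21 to 2.84 and Smn1deltaSKM from 0.46 over 1.04 to 3.56, with a difference of -0.56 (SE 0.57, limma adjusted p = 0.495). Smn1deltaSKM mouse 1 had a mean of 2.75 there against 0.74 and 0.95 in mice 2 and 3, and without mouse 1 the difference was -1.19 (limma adjusted p = 0.0127).

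Strap, the WD-repeat protein that joins through Gemin7, had probes of opposite sign. The Smn1deltaSKM minus Wt difference was -0.52 (SE 0.41, limma adjusted p = 0.369) at A_52_P650379 and 0.47 (SE 0.59, limma adjusted p = 0.579) at the intron-crossing A_66_P106375. At the latter, the 3 Smn1deltaSKM myofibers of scan day 1 lay at 2.27 to 3.43 and the 9 of day 2 at 0.31 to 1.38, and the 2 Smn1deltaSKM+AFS myofibers of day 1 at 1.89 to 2.68 against 0.68 to 1.23 on day 2. Without Smn1deltaSKM mouse 1 the A_52_P650379 difference became -0.87 (limma adjusted p = 0.0451) and the A_66_P106375 difference -0.16.

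**Figure D3:**
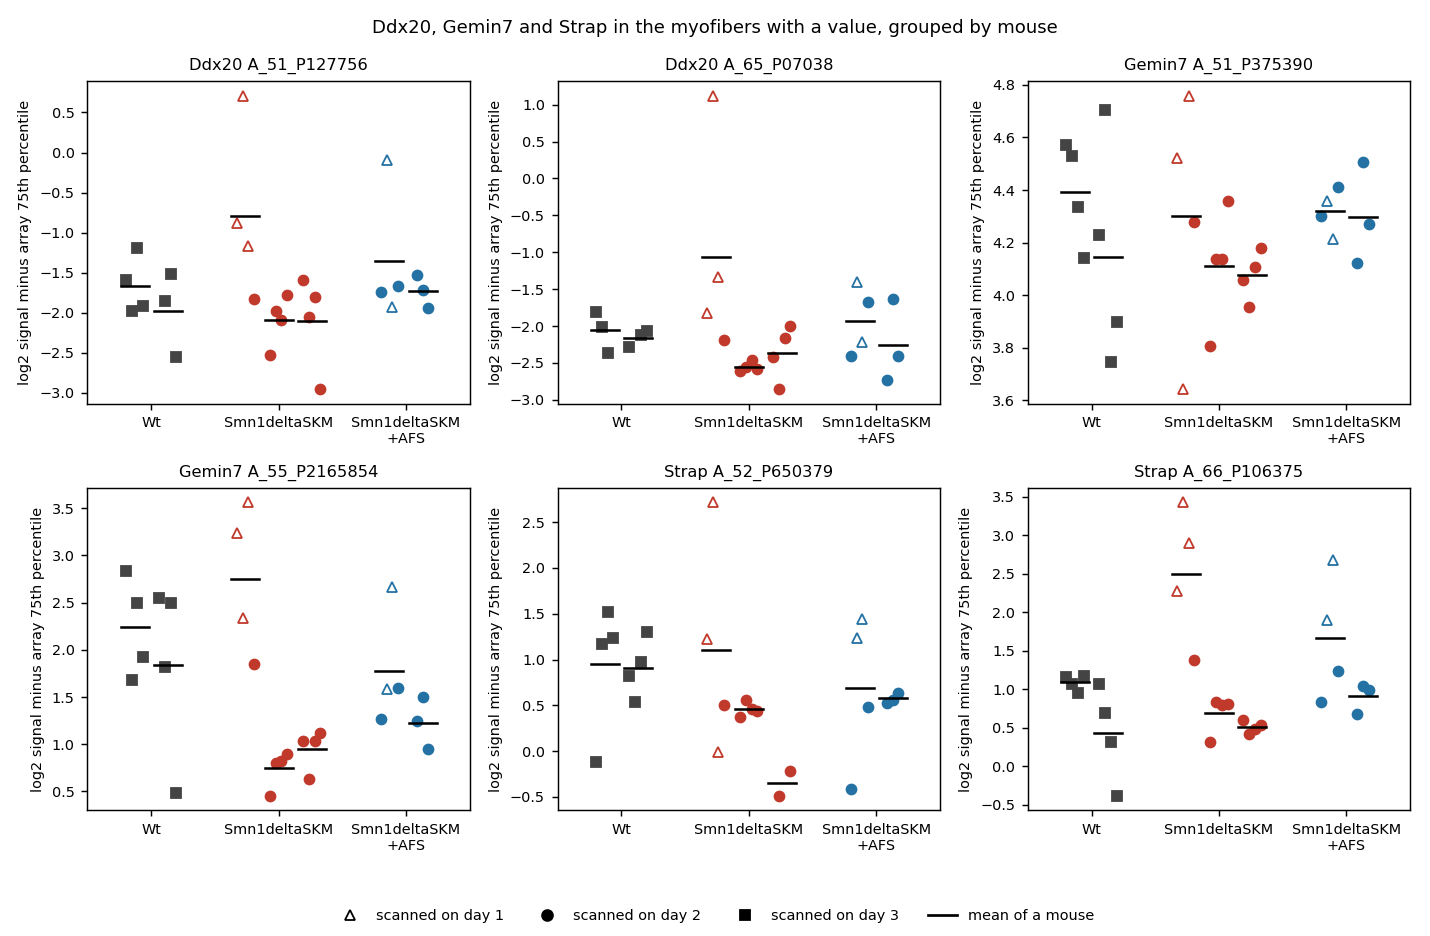
Levels of the 2 probes each of Ddx20, Gemin7 and Strap in the myofibers with a value, by mouse, with bars at mouse means. The Smn1deltaSKM myofibers of scan day 1 (open triangles) lie above all those of day 2 at both Ddx20 probes, Gemin7 A_55_P2165854 and Strap A_66_P106375, and Wt overlaps the knockout range in each panel.

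The stem cell transplantation was compared with the untreated knockout, the question being whether complex members differed after it. No member probe was called, and 0.00% of all 22169 probes were (712 at an unadjusted p under 0.05, none of them members). The 10 differences lay between -0.11 (Gemin6) and 0.46 (Gemin5) with a median of 0.10, against a median of 0.06 over all probes. At the downstream Smn1 probe the difference was 0.08 (SE 0.37, 95% interval -0.76 to 0.92, limma adjusted p = 0.9999), and the 2 treated mice lay 1 on each side of the untreated ones, at -0.34 and 0.82. At the upstream Smn1 probe it was 0.20 (95% interval -0.61 to 1.01). For Gemin6 it was -0.11 (95% interval -0.97 to 0.75), and for Gemin5 0.46 (95% interval -0.18 to 1.11). Both treated Gemin5 means (0.4696 and 0.0865) lay above the 3 untreated means, of which the highest was 0.0767, and treated mouse 1 held the myofiber at 2.04. The share of all probes with such a separation between these 2 groups was not counted. Both groups were scanned on days 1 and 2, so the differences were also taken within each. At the downstream Smn1 probe the difference was -0.63 within day 1, which held 1 mouse of each group and allowed no test, and 0.20 within day 2. The treated myofibers of day 1 lay at -1.04 to -0.54 there and those of day 2 at 0.10 to 1.32. Gemin6 gave 0.41 and -0.21, Gemin5 1.51 and 0.03, and the upstream Smn1 probe 0.16 and 0.09 within days 1 and 2. No member was called within day 2, nor with the scan day as a term in the limma fit.

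Compared with Wt, the treated knockout had the same 2 member probes called, from the same Wt mice. Over all probes, 7.33% were called, 4.34% lower and 2.99% higher. Gemin6 was higher by 1.82 (SE 0.41, limma adjusted p = 0.0413) and the downstream Smn1 probe lower by 1.61 on the log2 scale, recorded as -1.61 (SE 0.40, limma adjusted p = 0.0499). The other 8 differences lay between -0.53 (Gemin7 A_55_P2165854) and 0.53 (Strap A_66_P106375), with adjusted p of 0.534 or more. The upstream Smn1 probe differed by 0.39 (95% interval -0.50 to 1.28). The Smn1 call lay at the threshold and was lost under 14 of 22 alternatives, with adjusted p up to 0.273.

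**Figure D4:**
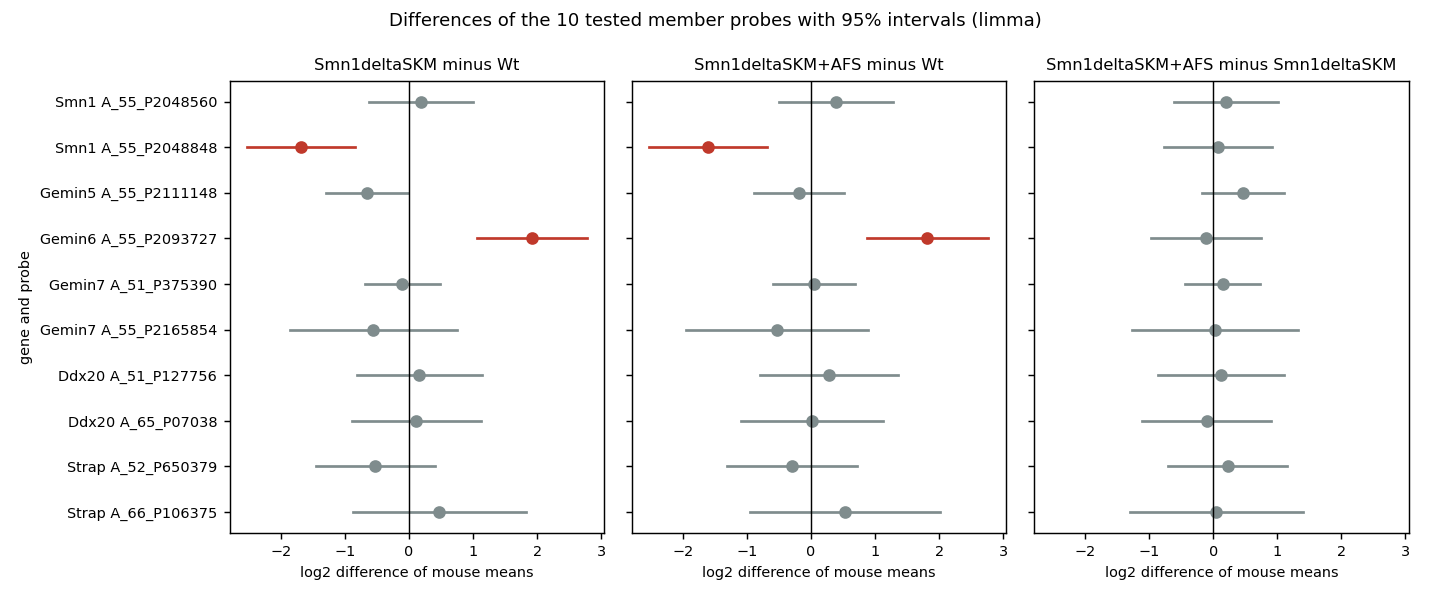
Log2 differences of mouse means with 95% intervals from limma for the 10 tested member probes in 3 comparisons; red marks adjusted p under 0.05. The downstream Smn1 probe is at -1.68 and -1.61 and Gemin6 at 1.92 and 1.82 against Wt, and every interval of the third panel spans 0.

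Around the complex, 46 genes of snRNP assembly were listed in 9 groups, of which 35 (48 probes) could be tested. Between Smn1deltaSKM and Wt 4 probes were lower and 1 was higher, 10.4% of the 48 against 21.5% of all probes, and the median difference was -0.21 against -0.14. In the methylosome list 2 of 6 probes were called, both lower. Prmt5, the symmetric arginine methyltransferase of the methylosome, was at 2.48 ± 0.29 (SD, n = 2) in Wt and 0.82 ± 0.20 (SD, n = 3) in Smn1deltaSKM, a difference of -1.66 (SE 0.28, limma adjusted p = 0.0107). Prmt7, a second methyltransferase of Sm proteins, differed by -1.83 (SE 0.28, limma adjusted p = 0.00889) at A_51_P298538 and by -0.36 (limma adjusted p = 0.552) at its other probe. Neither the 2 Wdr77 probes (0.14 and -0.52) nor Clns1a (-0.17) was called. Both called probes were also lower in the treated knockout than in Wt, by -1.42 and -1.23 (limma adjusted p = 0.0359 and 0.0487), calls that were lost under 10 and 12 of 22 alternatives with adjusted p up to 0.261.

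Tgs1, which hypermethylates the cap, differed by -1.34 (SE 0.33, limma adjusted p = 0.0276) at 1 probe and by -0.37 (limma adjusted p = 0.604) at the other, and the call was lost under 8 of 21 alternatives. Snrpc, a U1-specific protein, differed by -0.99 (SE 0.28, limma adjusted p = 0.0401) at 1 probe and by -0.74 (limma adjusted p = 0.131) at the other. The call at the former was lost under 15 of 20 alternatives. Nolc1, a shuttling phosphoprotein of the nucleolus and Cajal body, was the 1 higher gene, at 1.55 (SE 0.29, limma adjusted p = 0.0138) and equally 1.55 in the treated knockout against Wt (limma adjusted p = 0.0335), where the call was lost under 7 of 21 alternatives. None of the 14 Sm core probes (8 genes) was called. Their differences ranged from -0.99 (Snrpe A_51_P363634) to 0.74 (Snrpd1 A_55_P1971448) with a median of -0.20. No listed probe was called between the treated and the untreated knockout.

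**Figure D5:**
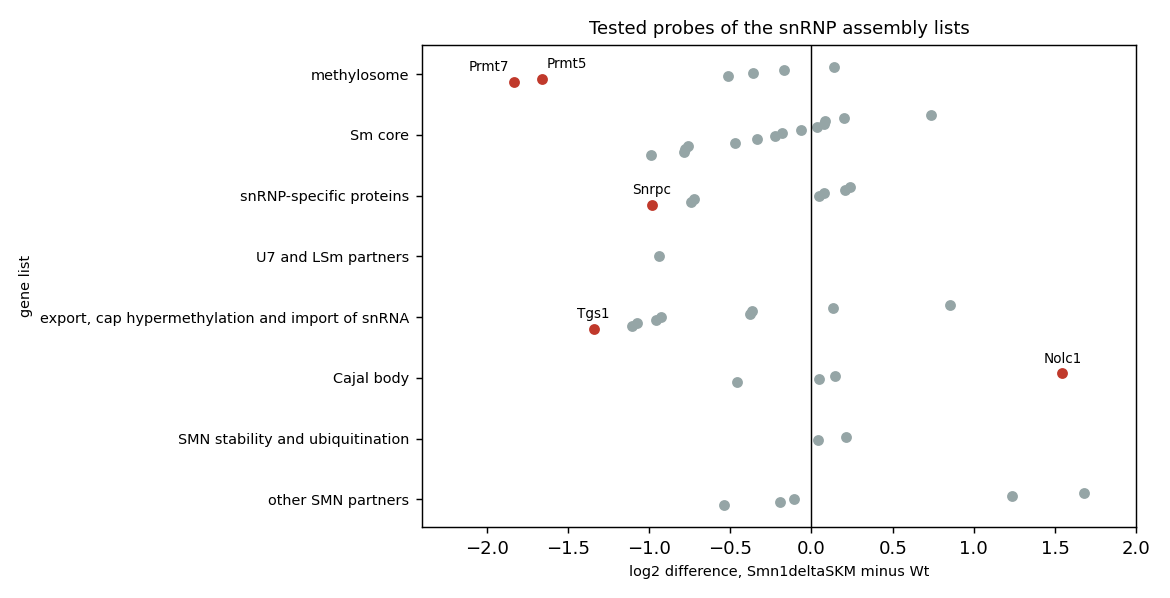
Log2 difference between Smn1deltaSKM and Wt for each of the 48 tested probes of the snRNP assembly lists, 1 row per list with a tested probe; red and named are probes with limma adjusted p under 0.05. Prmt5 and Prmt7 lie at -1.66 and -1.83, Tgs1 at -1.34, Snrpc at -0.99 and Nolc1 at 1.55, and the Sm core row has no called probe.

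The genes most like Smn1 differed between its 2 probes. Over the 27 myofibers and among probes with a value on every array, the downstream probe went most closely with Mapre3 (Pearson r 0.95), H6pd (0.94), Pbxip1 (0.94), Spns1 (0.93) and Hsp90ab1 (0.93). With group means removed the same r were 0.85, 0.88, 0.87, 0.85 and 0.84. Among the most opposite were Zxdb (-0.89), Gm3051 (-0.88), Stmn4 (-0.88) and Lax1 (-0.87), which came to -0.66, -0.66, -0.74 and -0.63 within groups. The upstream probe went with Metap1 (0.89), Gde1 (0.87), Vamp1 (0.87), Lmo4 (0.85) and Gm5492 (0.85), which came to 0.88, 0.86, 0.86, 0.84 and 0.84 within groups, and against Tifa (-0.79), Rad18 (-0.78), Ermn (-0.77), Serpinb3c (-0.76) and Jam2 (-0.75), at -0.78, -0.78, -0.75, -0.72 and -0.74 within groups. No gene was in both sets. These r describe 27 arrays that share mice, slides and scan days. Quantile normalization kept 4 of the 5 highest for the upstream probe and 2 of 5 for the downstream one.

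Among the members themselves, over arrays that share mice, slides and scan days and with group means removed, the highest r over myofibers joined Gemin7 A_55_P2165854 with Strap A_66_P106375 (0.84, 27 arrays) and with the upstream Smn1 probe (0.83). Without the 5 arrays of scan day 1 these were 0.72 and 0.73 over 22 arrays. The 2 Ddx20 probes had r of 0.75 over 24 arrays and -0.19 over 19 without scan day 1, and the 2 Strap probes 0.56 and 0.01. The 2 Smn1 probes, on 1 transcript, had r of -0.12 over 27 arrays and 0.34 over 22. The lowest r within groups joined the downstream Smn1 probe with Strap A_52_P650379, at -0.64 with scan day 1 and -0.25 without it. The next lowest joined the downstream Smn1 probe with Gemin6, at -0.63 and -0.46.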

How the data were processed

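The authors amplified the RNA of each myofiber, labelled the cDNA with Cy3 using a kit made for genomic DNA, and read 27 Agilent mouse 8x60K arrays with Agilent Feature Extraction 10.7.3.1. The deposited values are spot intensity on a linear scale, with background subtracted and a spatial trend removed per array. No scaling across arrays had been applied to it. A second deposited table, of intensity that the authors had put on a common scale by a method not given in the sources used here, served as an alternative. Here log2 of the processed signal minus the array's 75th percentile over non-control spots was used. Spots not found, not well above background or uneven got no value, repeated spots were averaged, and a probe entered the tests if 75% or more of the arrays gave it a value (22169 of 55681). The labels give the mouse of each myofiber, and myofibers were averaged per mouse because genotype and treatment belong to the mouse. Means of 7 mice were fitted with limma 3.58.1 (R 4.3.3), 3 groups sharing 1 estimate of the spread, with Benjamini-Hochberg adjustment over all probes. A probe was called at adjusted p under 0.05. The script was tested on simulated data. The number of arrays limits the precision. Members, gene lists and tests were chosen with earlier results of these data known. The 8 genes with all their probes, every listed gene called in a comparison, and the 5 genes highest and 5 lowest in r to each Smn1 probe were named, apart from 1 that is not reported here; other names in the text were chosen after their values were seen. The study's own SAM test treats myofibers as replicates, and myofibers as replicates were run as an alternative in limma.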

Additional observations from a re-analysis of the deposited data

Results flagged for a closer look

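Among 20 sets of a tested member probe and a group of 7 or 8 myofibers, 5 had 1 myofiber far from the rest of its group by Dixon's test, which chance gives in about 1 of 20 sets. The sets share the same myofibers and are not independent, so the count cannot be read as an excess of separate outliers. Wt myofiber 8 was low at the downstream Smn1 probe (0.63, the next at 1.56). Smn1deltaSKM+AFS myofiber 3, of scan day 1, was high at the upstream Smn1 probe (3.88, the next at 2.96), at Gemin5 (2.04, the next at 0.50) and at Gemin7 A_55_P2165854 (2.67, the next at 1.59). Smn1deltaSKM+AFS myofiber 2, also of scan day 1, was high at Ddx20 A_51_P127756 (-0.10, the next at -1.53). The part of the scan day in these values was not tested.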

How the results depend on the processing

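The counts of called members depended on single mice. Between Smn1deltaSKM and Wt, 2 member probes were called, 1 with the brightest probe per gene, the mean of a gene's probes or the slide as a random block, 3 with myofibers as replicates (Gemin5 added, limma adjusted p = 0.0217) or without the filter, and 0 to 4 when each mouse was left out in turn (0 without either Wt mouse, 4 without Smn1deltaSKM mouse 1). Between Smn1deltaSKM+AFS and Wt the 2 became 1 under quantile normalization, normexp, median centring, the authors' table, no filter, the filter over 20 arrays, the brightest probe, the mean of probes, the slide as a random block and the replicate block, and 0 to 2 without each mouse. Between the knockout groups the count was 0 under all 26 alternatives. The listed snRNP probes called between Smn1deltaSKM and Wt (5) became 2 with values on every array, 3 with the slide as a random block, 11 with the mouse as a random block, 21 with myofibers as replicates and 0 to 20 without each mouse. Against Wt, the 3 of Smn1deltaSKM+AFS became 1 (quantile, authors' table, no filter, replicate block), 8 (mouse as a random block, or both groups alone), 15 (myofibers as replicates) and 0 to 11 without each mouse.

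Small differences changed sign. Between Smn1deltaSKM and Wt, Ddx20 A_51_P127756 was -0.045 (quantile), -0.065 (authors' table), -0.184 (without Smn1deltaSKM myofibers 1 to 3, an alternative chosen after seeing the data) and -0.274 to 0.379 without each mouse. Ddx20 A_65_P07038 was -0.174 (quantile), -0.018 (normexp), -0.191 (authors' table), -0.258 (without those myofibers) and -0.348 to 0.397. Gemin7 A_51_P375390 was 0.197 (quantile), 0.444 (normexp), 0.109 (median centring), 0.193 (authors' table) and -0.232 to 0.018. Strap A_52_P650379 was 0.05 as the mean of probes, Strap A_66_P106375 -0.158 to 0.836 and the upstream Smn1 probe -0.067 to 0.451 without each mouse. Between the knockout groups, Gemin5 was -0.151 with the slide as a fixed term. Gemin6 was 0.024 (slide as a random block), 0.256 (slide fixed), 0.405 (within day 1), 0.359 (without those myofibers) and -0.465 to 0.251. The downstream Smn1 probe was -0.012 (median centring), -0.006 (myofibers as replicates), -0.077 (slide as a random block), -0.025 (slide fixed), -0.625 (within day 1), -0.021 (without those myofibers) and -0.503 to 0.658, and the upstream probe -0.014 to 0.451. The cause was not tested.

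The labels do not tie same-numbered mice together, and the r of their deviations ran from -0.054 to 0.3. The highest was that of mouse 1 of both knockout groups, which also share scan day 1. With the mouse number as a replicate block, the Smn1deltaSKM minus Wt differences of the downstream Smn1 probe (-1.78) and Gemin6 (1.92) were still called, and the Smn1deltaSKM+AFS minus Wt difference of the former (-1.61, limma adjusted p = 0.0533) was not. Over all probes, limma called 0 between Smn1deltaSKM and Wt without either Wt mouse (4635 and 5965 at an unadjusted p under 0.05, the lone Wt mouse being assumed to vary like the other groups) and 9711 without Smn1deltaSKM mouse 1. Probes near background, such as those of Gemin4 and Gemin8, limit what could be compared.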
